A study of Mus musculus with 6 samples.

Results

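Imprinted genes are expressed mainly from the copy inherited from 1 parent, and 37 such mouse genes were examined in ovarian secondary follicles, the preantral stage in which a growing oocyte is surrounded by granulosa cells. A gene was included when a probe set of the array carried its symbol and no other, and where a gene had several such probe sets, it was represented by the brightest on average across the 6 arrays. By this rule 33 of the 37 genes were measured, among 18193 genes in all. H19, Rtl1, Dio3 and Zrsr1 had no probe set with their symbol alone and were not analysed here. The follicles came from old mice at 32 weeks and young mice at 9 weeks, with 3 samples at each age. All mice were female C57BL/6J animals obtained as specific pathogen-free, with no treatment and no engineered allele named in the labels. The paper raises the possibility that viruses had infected the mice, which was not tested here. The follicles were isolated with needles, chosen by size and an intact outer membrane, and their RNA was hybridised to an Affymetrix 3' expression array. Oocyte and granulosa cell RNA were measured together, so fewer cells of a type and less RNA per cell cannot be told apart. The labels call the samples of an age biological replicates without saying how many mice each came from, so the p-values refer to the spread among samples, part of which may be technical.

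An imprint is typically, but not at every imprinted gene, a methylation mark on CpG dinucleotides (a C followed by a G). It is laid down in the germ line and kept in somatic cells. In the female, these marks are placed on the oocyte genome while the oocyte grows, and the secondary follicle is a stage of that growth. The granulosa cells around it carry ordinary somatic imprints, and which of these genes have 1 active copy in them was not measured here. Imprinted genes lie in clusters, in which maternally and paternally expressed genes are neighbours, and many act on growth, placental function and metabolism. Of the 33 measured genes, 14 are usually expressed from the maternal copy and 17 from the paternal copy, and for the other 2, Gnas and Grb10, the copy depends on the transcript and tissue. These assignments are background, since the array does not tell the 2 copies of a gene apart. Some of them hold only in tissues such as placenta or brain.

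Of the 33 imprinted genes, 2 rose in old follicles relative to young follicles and 10 fell at an adjusted p of at most 0.05 (limma with Benjamini-Hochberg adjustment over 18193 genes), and all of these changes were under a fold of 2. The long noncoding RNA Rian rose most, to 1.68 times its level in young follicles, followed by its neighbour Meg3 at 1.19 times. Gatm, which encodes the enzyme of the opening step of creatine synthesis, fell most, to 0.597 times its young level. Nnat, Asb4, Peg3, Slc38a4, Grb10, Sgce, Gnas, Plagl1 and Ndn fell to between 0.727 and 0.859 times. When a fold of at least 2 was required in addition, as in the methods of the study, limma called 0 members higher and 0 lower, against 0.638% of all genes higher and 0.126% lower (0.764% in either direction). The significance analysis of microarrays (SAM) also called 0 members in each direction. These counts rest on the brightest probe set of each gene. With the 34945 probe sets of 1 symbol taken singly, limma called 0.466% higher and 0.552% lower, among the latter 1 of Peg3. At an unadjusted p under 0.05, 5 members were higher and 10 lower, where 16.9% of all genes were higher and 20.4% lower, so the count of members that were higher was near the background.

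**Figure D1:**
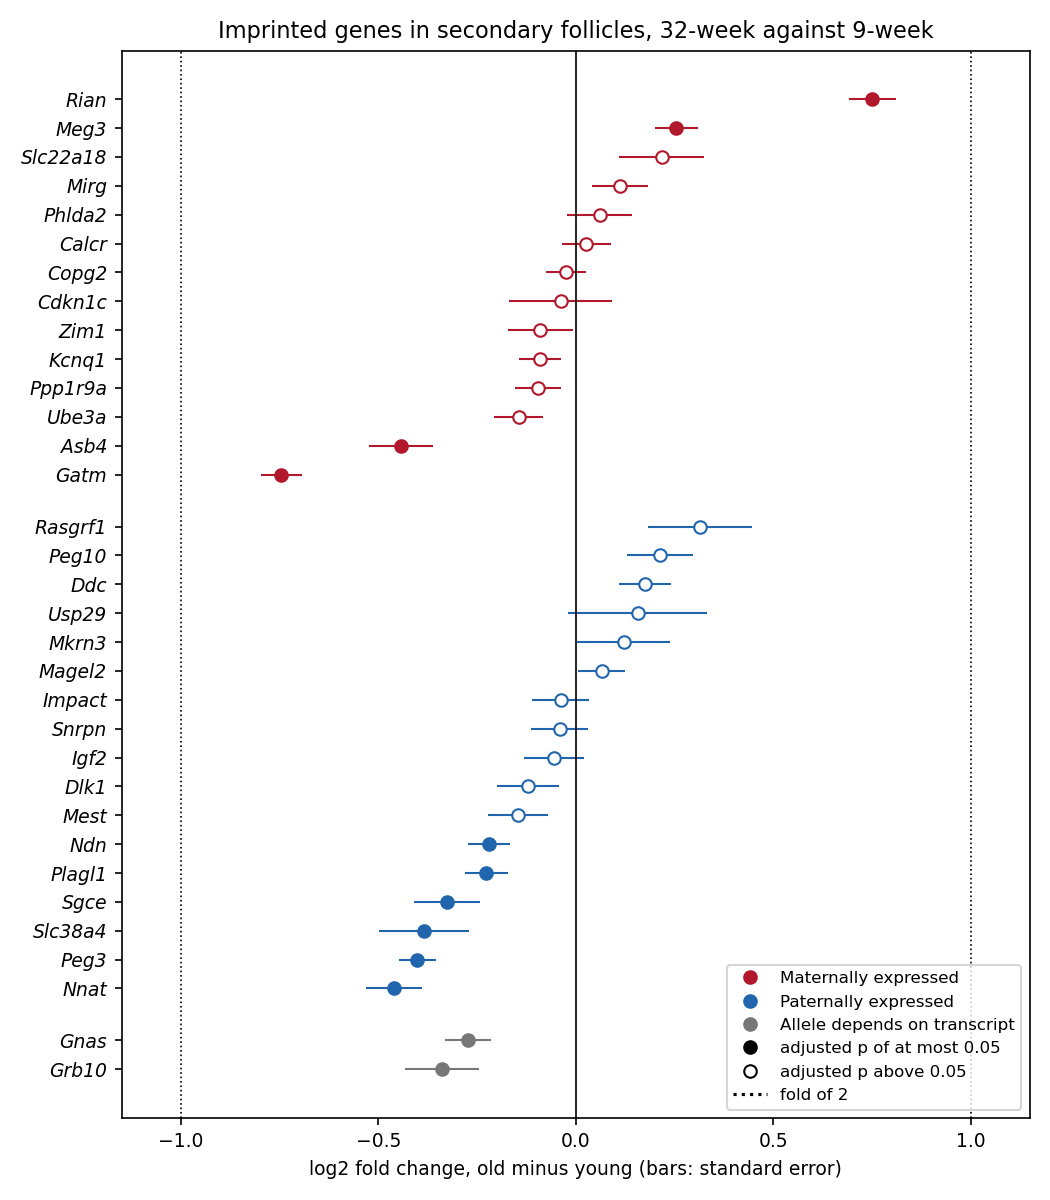
The log2 fold change of each measured imprinted gene, old minus young (horizontal axis, bars show the standard error), for 14 maternally expressed genes (red), 17 paternally expressed genes (blue) and 2 genes whose expressed copy depends on the transcript (grey). Filled points had an adjusted p of at most 0.05, and every point lies between the dotted lines of a 2-fold change, from -0.75 for Gatm to 0.75 for Rian.

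The share of imprinted genes that rose was 6.06%, below the 10.1% of all genes that did so, and the share that fell was 30.3%, against 13.3% of all genes. Over all genes the split was 1835 that rose and 2422 that fell, and it turned to 2153 and 1939 after a further quantile normalization. The count of members that fell was not stable. It was 4 of 30 (13.3%) without the probe sets whose names mark them as matching several transcripts or genes (shared probe sets). There 13.4% of all genes fell. Nnat and Grb10 had only shared probe sets and could not be fitted in that setting. Slc38a4 (-0.38, adjusted p = 0.0501 from limma) and Sgce (-0.30, adjusted p = 0.17) did not pass there, and Plagl1 and Gnas turned positive. Leaving out old replicate 1, old replicate 3, young replicate 1 or young replicate 2 gave 6, 4, 5 and 4 members that fell. These were 18.2%, 12.1%, 15.2% and 12.1% of the members, against 9.29%, 8.12%, 9.88% and 8.33% of all genes. The count that rose was 1 without young replicate 3. The old and young values did not overlap for 15 of the 33 genes (45.5%), close to the 42.5% of all genes tested. Of these 15 genes, 3 were higher and 12 lower in the old follicles. On 10 members, among them Igf2, Dlk1, Snrpn and Peg10, both group means lay below the median of all probe sets (log2 intensity 4.94). RMA values carry no call of presence, so a difference in these dim genes may not have been detectable. None of the 10 passed the test by limma, and 1 of them, Rasgrf1, did so by SAM. No filter on dim probe sets was used, and all 33 genes were kept.

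The maternally expressed genes held both the largest rise and the largest fall. Of the 14 measured, 2 rose (Rian and Meg3, 14.3%), 2 fell (Gatm and Asb4, 14.3%) and 10 did not pass the test. Over all genes 10.1% rose and 13.3% fell, so the maternally expressed share that fell was near the background. The median log2 fold change of the maternally expressed genes was -0.032, against -0.054 for the paternally expressed genes and -0.0042 for all genes. The groups differed in dim genes, which were 2 of the 14 maternally and 8 of the 17 paternally expressed genes. Without dim genes the maternal median was -0.032 and the paternal median -0.23, against -0.046 for all genes that were not dim. Of the 17 paternally expressed genes, 0 rose by limma, 6 fell (35.3%) and 11 did not pass. Those that fell were Nnat, Peg3, Slc38a4, Sgce, Plagl1 and Ndn. At an unadjusted p under 0.05, 3 of the 17 were higher and 6 lower (16.9% and 20.4% of all genes), and Rasgrf1 was past the threshold by SAM. Neither median kept its sign under every setting: the maternal median was 0.0035 after a further quantile normalization and 0.00075 after cyclic loess, and it was 0.024 without old replicate 1. The paternal median was 0.0021 without shared probe sets. The medians and counts describe a chosen list, and no test of maternally against paternally expressed genes was made.

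The promoters of Gatm, Rian, Meg3, Nnat and Peg3 are shown because Gatm and Rian had the 2 largest changes, Meg3 was the other gene that rose, and Nnat and Peg3 fell and stayed past the threshold in every setting in which they could be fitted. Each line gives the 250 bases before the gene's start from RefSeq (build GRCm38.p6), read 5′ to 3′ on the gene's own strand, with every CpG in capitals.
Gatm: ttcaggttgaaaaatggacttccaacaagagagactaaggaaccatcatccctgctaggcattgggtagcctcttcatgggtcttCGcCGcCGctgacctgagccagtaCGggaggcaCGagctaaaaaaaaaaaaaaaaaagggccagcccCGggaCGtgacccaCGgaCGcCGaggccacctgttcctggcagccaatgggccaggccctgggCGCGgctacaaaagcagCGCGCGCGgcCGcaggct
Rian: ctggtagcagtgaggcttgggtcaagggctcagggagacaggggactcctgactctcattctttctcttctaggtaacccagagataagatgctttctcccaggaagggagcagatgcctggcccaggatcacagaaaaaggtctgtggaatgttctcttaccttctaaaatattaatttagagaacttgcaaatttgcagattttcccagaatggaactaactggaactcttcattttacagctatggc
Meg3: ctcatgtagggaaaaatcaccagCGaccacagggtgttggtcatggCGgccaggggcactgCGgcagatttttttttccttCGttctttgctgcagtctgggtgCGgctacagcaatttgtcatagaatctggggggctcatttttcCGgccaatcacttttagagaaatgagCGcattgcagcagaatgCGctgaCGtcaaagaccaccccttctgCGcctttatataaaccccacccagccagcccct
Nnat: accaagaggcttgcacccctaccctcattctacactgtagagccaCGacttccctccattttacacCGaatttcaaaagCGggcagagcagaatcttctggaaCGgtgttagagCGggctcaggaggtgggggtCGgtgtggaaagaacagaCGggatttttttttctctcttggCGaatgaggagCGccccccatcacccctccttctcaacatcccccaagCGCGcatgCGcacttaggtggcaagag
Peg3: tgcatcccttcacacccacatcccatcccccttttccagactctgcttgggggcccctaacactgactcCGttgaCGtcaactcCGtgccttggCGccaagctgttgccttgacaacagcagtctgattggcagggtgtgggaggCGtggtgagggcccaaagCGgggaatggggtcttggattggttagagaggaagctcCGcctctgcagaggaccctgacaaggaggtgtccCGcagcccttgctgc

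The Gatm window (chr2:122611278-122611527, minus strand) held 17 CpG dinucleotides, and the Rian window (chr12:109603695-109603944, plus strand) held 0. Those of Meg3 (chr12:109540746-109540995, plus strand), Nnat (chr2:157559828-157560077, plus strand) and Peg3 (chr7:6730420-6730669, minus strand) held 10, 12 and 8. Over all 32851 windows of this length the median was 6, a window had no CpG in 7.87% of cases, and 23.5% had 17 or more. Windows were found for 30 of the 37 genes, 49 windows in all since a gene can have several starts, and their median was 8 CpG. The letters TGCCGC, searched on both strands, form the core of the sequence that the imprint-protecting protein ZFP57 binds when methylated. They were found in 7 of the 49 windows (14.3%), of 6 genes, against 8.68% of all windows. Of the 7 windows, 2 were of Mest, with starts 3 bases apart, and hold the same matches. Meg3 was the single gene of the 5 shown with such a match. The windows of Peg3 and Usp29 lie on opposite strands and share 163 bases.

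Among the maternally expressed noncoding RNAs, Rian and Meg3 rose and Mirg did not pass the test. All 3 are transcribed from the domain that lies between the paternally expressed genes Dlk1 and Dio3, and they carry small RNAs in their introns and exons. Rian was at 7.98, 8.11 and 8.06 in the 3 old samples, against 7.31, 7.36 and 7.23 in the 3 young samples (log2 intensity, as are all levels below). Every old sample lay above every young sample by more than the whole range of either group. The log2 fold change was 0.75 ± 0.06 (standard error) with an adjusted p of 0.00033 by limma, and it stayed past the threshold in all 15 settings tried, between 0.29 (with its 4 probe sets averaged) and 0.83 (after a further quantile normalization).

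Of the 4 probe sets of Rian, 2 rose, the brightest and one with a log2 fold change of 0.32, and the other 2 were at 0.08 and -0.0004. The gene's interval in RefSeq holds 3 miRNA hairpins on its strand, mir-341, mir-1188 and mir-370. Their 6 mature sequences were not measured in these data. They are shown here, with the seed (bases 2 to 8, the part that pairs with a target) in capitals, because they lie within the gene that rose most.
mmu-miR-341-5p: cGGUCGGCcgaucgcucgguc
mmu-miR-341-3p: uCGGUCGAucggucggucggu
mmu-miR-1188-5p: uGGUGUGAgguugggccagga
mmu-miR-1188-3p: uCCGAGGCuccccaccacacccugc
mmu-miR-370-5p: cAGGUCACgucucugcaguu
mmu-miR-370-3p: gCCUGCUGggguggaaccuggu
No seed was shared among the 6.

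Meg3, a nuclear noncoding RNA that restrains cell growth, was at 10.55, 10.51 and 10.43 in the old samples and at 10.21, 10.28 and 10.24 in the young samples. The groups did not overlap, and the log2 fold change was 0.25 ± 0.06 (standard error) with an adjusted p of 0.016 by limma. Of its 11 probe sets, 5 rose, 0 fell and 6 did not pass the test, with log2 fold changes between -0.03 and 0.38. With all probe sets averaged, Meg3 was at 0.20 and no longer past the threshold (adjusted p = 0.054 from limma), as it did without old replicate 1 (adjusted p = 0.053) and without young replicate 3 (adjusted p = 0.051). Mirg, the host of many miRNAs, was at 6.33, 6.49 and 6.44 in old follicles and at 6.42, 6.26 and 6.25 in young follicles, a difference of 0.11 with overlapping groups. Dlk1, a Notch-like membrane protein expressed from the paternal copy of the same domain, was at -0.12 and did not pass the test.

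Gatm was the largest fall among the members. It encodes glycine amidinotransferase, and its maternal expression is known from the mouse placenta. The 3 old samples were at 8.68, 8.69 and 8.64, against 9.44, 9.44 and 9.36 in the young samples. The gap between the groups exceeded the range within either several times over, and the log2 fold change was -0.75 ± 0.05 (standard error) with an adjusted p of 0.00018 by limma. Gatm has 1 probe set, so no other part of its transcript was measured. Its values ran from -0.77 to -0.69 over the 15 settings, all past the threshold.

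Asb4, an adaptor of a ubiquitin ligase, also fell among the maternally expressed genes. It was at 4.91, 5.10 and 5.02 in the old follicles and at 5.34, 5.45 and 5.57 in the young follicles. The groups did not overlap, and the log2 fold change was -0.44 ± 0.08 (standard error) with an adjusted p of 0.0084 by limma. Its other probe set fell by 0.56, so both probe sets of Asb4 gave the same direction. The remaining maternally expressed genes lay between -0.14 and 0.22. The potassium channel gene Kcnq1 (-0.09), the ubiquitin ligase gene Ube3a (-0.14), the neurabin gene Ppp1r9a (-0.10), the zinc finger gene Zim1 (-0.09), the cell cycle inhibitor Cdkn1c (-0.04) and the coatomer subunit Copg2 (-0.03) had negative values. The transporter Slc22a18 (0.22), the growth regulator Phlda2 (0.06) and the calcitonin receptor Calcr (0.03) had positive ones. None of these 9 genes passed the test at its brightest probe set, but a dimmer probe set of Ube3a (-0.34, adjusted p = 0.044 from limma over all probe sets) and one of Ppp1r9a (-0.20, adjusted p = 0.037) fell. Ube3a and Kcnq1 had old values below every young value, a pattern shared by 23.7% of all genes.

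**Figure D2:**
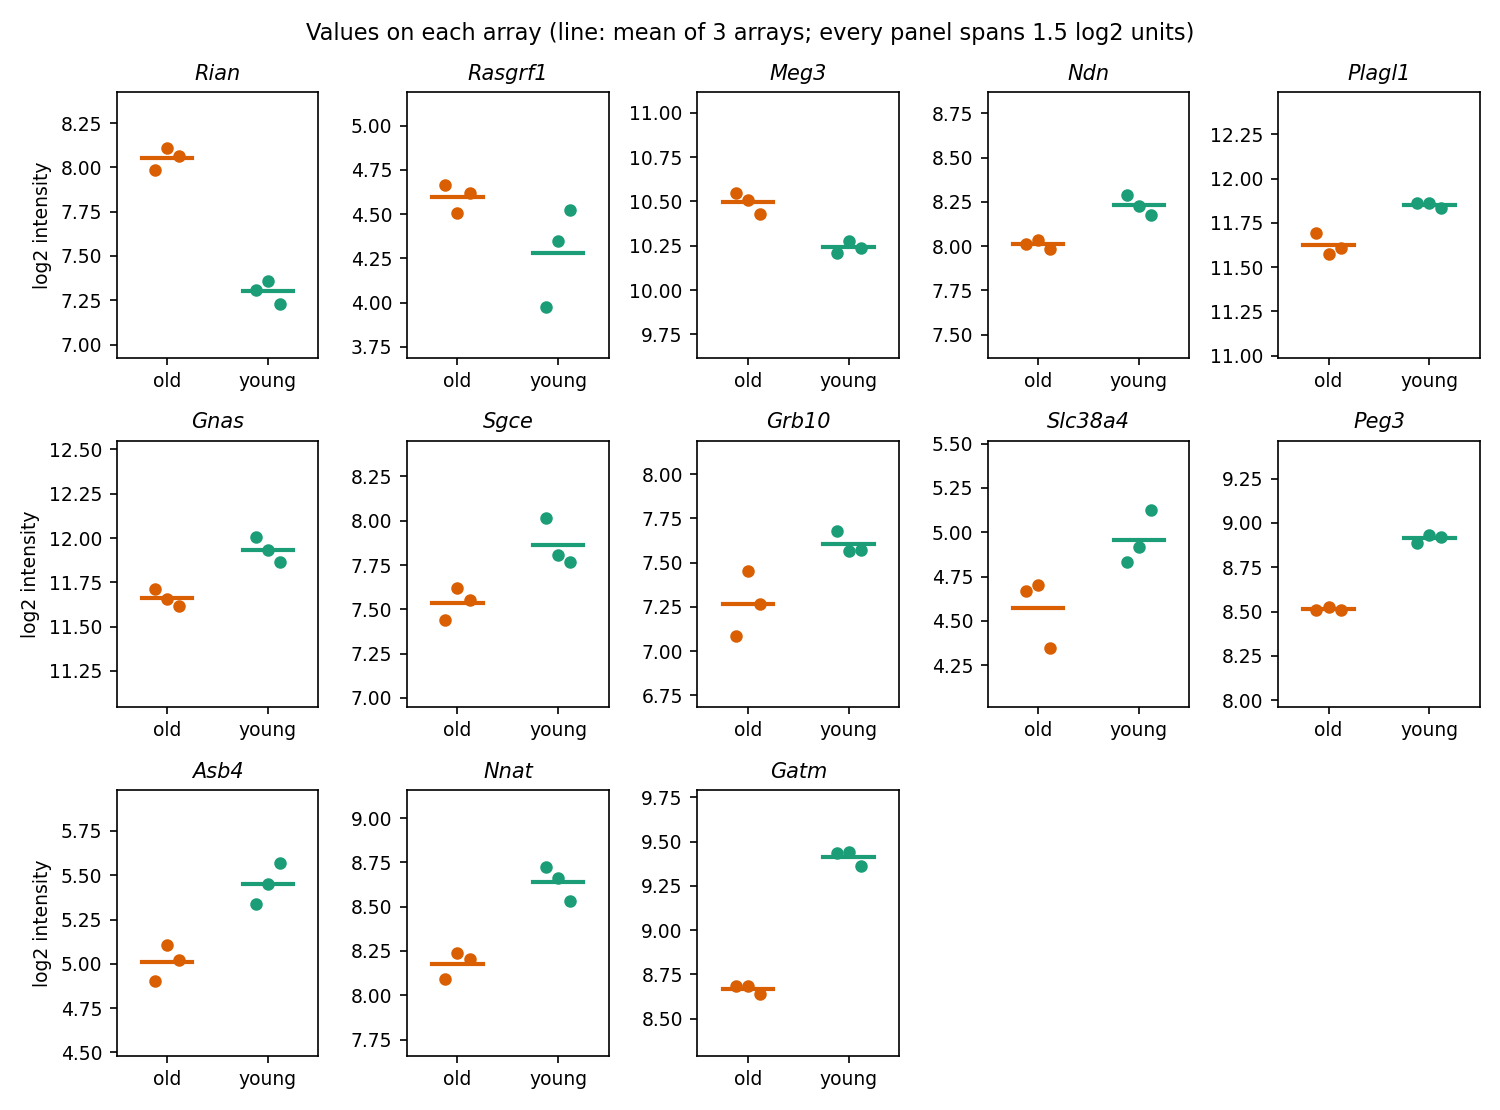
Log2 intensity on each array (vertical axis) for the 12 imprinted genes past an adjusted p of 0.05 and for Rasgrf1, with old samples left and young samples right, each point being an array and each line a group mean. In each panel but that of Rasgrf1 the 2 groups are separate, with the widest gaps for Rian and Gatm.

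Among the paternally expressed genes, Nnat, Peg3, Slc38a4, Sgce, Plagl1 and Ndn fell. Nnat encodes neuronatin, a small membrane protein of the endoplasmic reticulum, and was at 8.09, 8.24 and 8.20 in old follicles against 8.72, 8.66 and 8.53 in young follicles. Its log2 fold change was -0.46 ± 0.07 (standard error) with an adjusted p of 0.0045 by limma, and all samples of an age lay on the same side. Nnat has 1 probe set, and it passed the threshold in all 14 settings in which it could be fitted.

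Peg3, a zinc finger protein that binds DNA, was at 8.51, 8.52 and 8.51 in the old samples and at 8.89, 8.93 and 8.92 in the young samples. Samples of an age lay close together, and the log2 fold change was -0.40 ± 0.05 (standard error) with an adjusted p of 0.0018 by limma. Of the other probe sets of Peg3, one was at 7.23, 7.17 and 7.37 in old follicles against 8.16, 8.22 and 8.18 in young follicles, a log2 fold change of -0.93. A dimmer one was at 3.27, 3.22 and 3.42 in old against 4.31, 4.58 and 4.30 in young follicles, at -1.09, and it was the 1 probe set among the 87 of the members that reached a fold of 2 (adjusted p = 0.00034 from limma over 34945 probe sets, of which 0.552% were called lower and 0.466% higher). The remaining pair lay at 0.04 and -0.008. The 3 probe sets that fell thus gave sizes between 0.40 and 1.09. Usp29, a member of a deubiquitinase family whose promoter window overlaps that of Peg3, was dim and at 0.16, with overlapping groups.

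Slc38a4, an amino acid transporter, was at 4.67, 4.70 and 4.35 in old follicles and at 4.83, 4.92 and 5.12 in young follicles. Every old value and the young values of 4.83 and 4.92 lay below the median of all probe sets (4.94). Its young mean of 4.96 lay just above that median, so Slc38a4 was not counted as dim. The groups lay close together, and the log2 fold change was -0.38 ± 0.11 (standard error) with an adjusted p of 0.049 by limma. With any of the 6 samples left out, Slc38a4 was not past the threshold. Sgce, the epsilon-sarcoglycan of the membrane, was at 7.44, 7.62 and 7.56 in old and at 8.02, 7.81 and 7.77 in young follicles (-0.33, standard error 0.08, adjusted p = 0.029 from limma). The other probe set of Sgce was at -0.30 and did not pass the test. Sgce was no longer past the threshold without old replicate 1, old replicate 3, young replicate 1 or young replicate 2.

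Ndn encodes necdin, a protein of the MAGE family, and was at 8.01, 8.03 and 7.99 in old against 8.29, 8.23 and 8.17 in young follicles (-0.22, standard error 0.05, adjusted p = 0.026 from limma). Of its 8 probe sets, the 5 brightest all fell, by 0.22 to 0.59, and the 3 dim ones did not pass the test. With the 8 probe sets taken singly, the direction of Ndn was thus shared by the 5 that were above the median of the arrays. At its brightest probe set, Ndn was not past the threshold by SAM (q = 0.074), after quantile (-0.15) or cyclic loess normalization (-0.15), or without old replicate 1, old replicate 3, young replicate 1 or young replicate 2.

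Plagl1, a zinc finger transcription factor that stops the cell cycle, had probe sets that moved in opposite directions. Its brightest was at 11.69, 11.58 and 11.61 in old follicles and at 11.86, 11.86 and 11.83 in young follicles (-0.23, standard error 0.05, adjusted p = 0.022 from limma). A dimmer probe set of Plagl1 was at 7.34, 7.55 and 7.43 in old against 6.996, 6.80 and 6.84 in young follicles, at 0.56, and the dimmest was at 3.66, 3.74 and 3.54 in old against 4.40, 4.60 and 4.56 in young follicles, at -0.88. Each of the 3 passed the test, with groups that did not overlap. The direction of Plagl1 thus depended on the probe set, and the brightest one was not past the threshold with SAM or with any sample but old replicate 1 left out.

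The other paternally expressed genes did not pass the test. The growth factor Igf2 was at 4.09, 4.24 and 4.30 in old and at 4.20, 4.23 and 4.36 in young follicles, a difference of -0.05. The Ras activator Rasgrf1 was at 4.66, 4.51 and 4.62 in old and at 3.98, 4.35 and 4.52 in young follicles, and its 0.31 (standard error 0.13, adjusted p = 0.13 from limma) rested on a low value in young replicate 1, without which it was 0.16. Peg10, a gene derived from a retrotransposon, was at 0.21, the decarboxylase gene Ddc at 0.17, the ubiquitin ligase gene Mkrn3 at 0.12 and the necdin relative Magel2 at 0.07. Mest, of the hydrolase family, was at -0.15, the splicing protein gene Snrpn at -0.04 and Impact, a regulator of translation, at -0.04. A dimmer probe set of Impact rose by 0.57 while its brightest did not pass the test. The single probe set that stood for Snrpn was dim, and probe sets that carry the symbols of Snrpn and Snurf together were not used here.

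Gnas and Grb10, whose expressed copy depends on the transcript, both fell at their brightest probe sets. Gnas encodes the stimulatory G protein that couples the gonadotropin receptors to cyclic AMP, and was at 11.71, 11.66 and 11.62 in old follicles and at 12.004, 11.93 and 11.86 in young follicles (-0.27, standard error 0.06, adjusted p = 0.016 from limma). Of the 5 probe sets of Gnas, another was at 5.88, 6.14 and 6.20 in old against 5.64, 5.68 and 5.60 in young follicles and rose by 0.43, and the other 3 did not pass the test. Which transcript each probe set reads was not analysed here. The direction of Gnas changed with the choice of probe set, to 0.04 with all averaged and 0.23 without shared probe sets, and it was not past the threshold without old replicate 3 or young replicate 2. Grb10, an adaptor that restrains signalling of the insulin and IGF1 receptors, was at 7.09, 7.45 and 7.27 in old and at 7.68, 7.57 and 7.57 in young follicles (-0.34, standard error 0.09, adjusted p = 0.039 from limma). With any sample but old replicate 2 left out, Grb10 was not past the threshold.

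**Figure D3:**
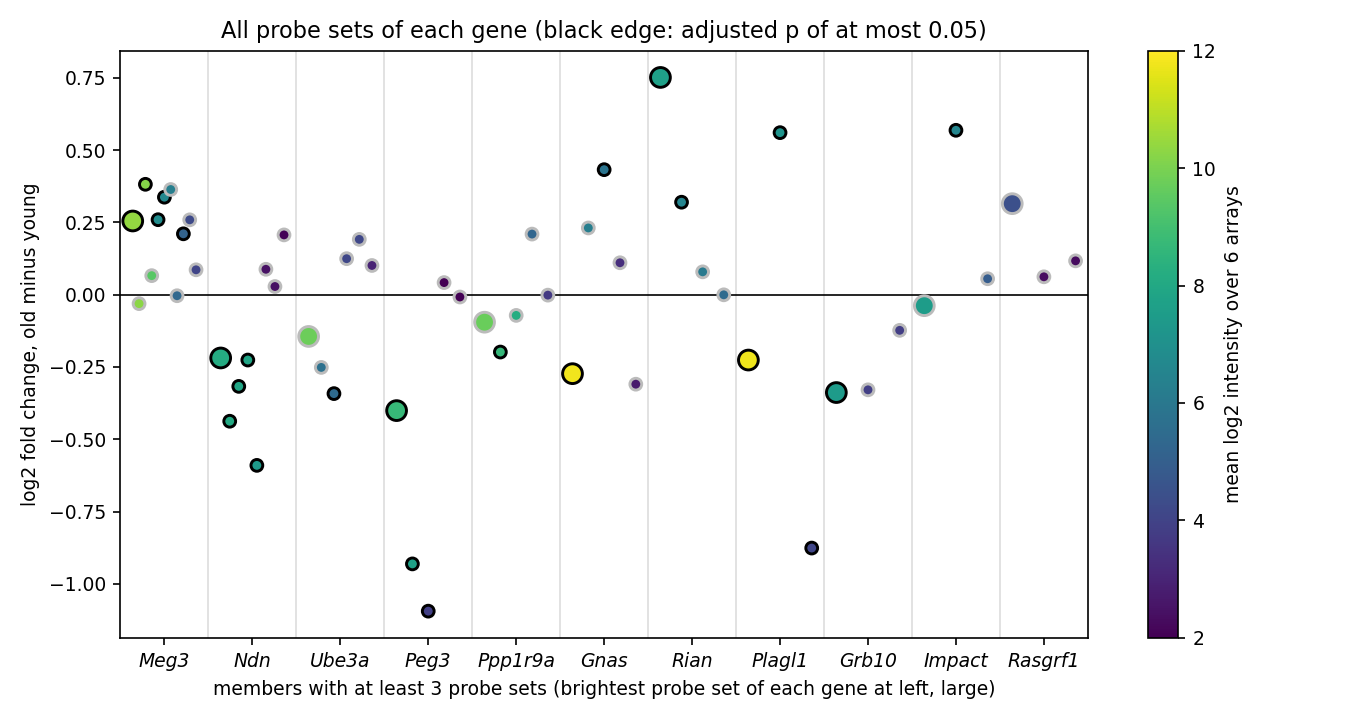
The log2 fold change, old minus young (vertical axis), of every probe set of the 11 members with at least 3, ordered within each gene by brightness, with the brightest large and at left, the mean log2 intensity as colour and a black edge for an adjusted p of at most 0.05. The bright probe sets of Ndn and Peg3 lie below 0 and those of Meg3 mostly above, while Plagl1 and Gnas have black-edged points on either side.

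Over all 87 probe sets of the members, 10 rose (11.5%) and 20 fell (23.0%), against 8.95% and 13.8% of the 34945 probe sets with 1 symbol. Of the 54 that were not the brightest of their gene, 8 rose and 10 fell. With at least 1 probe set past the threshold, 5 genes rose and 12 fell, and Plagl1 and Gnas were counted in each direction. Genes with more probe sets are more likely to be counted this way. The share of all genes was not computed on this count, so it has no background to be read against. The old arrays also differed in their control probe sets. The 3' minus 5' value of Gapdh was 1.51 ± 0.0048 in old and 0.469 ± 0.014 in young samples, and that of beta-actin was 2.53 ± 0.050 in old and 1.48 ± 0.033 in young samples (log2, SD, n = 3 each). That of the poly-A controls, which are added to the RNA before labelling, was 4.08 ± 0.10 in old and 3.33 ± 0.076 in young samples. By exact permutation over samples, two-sided, p = 0.1 for all 3 measures, and 3 against 3 samples cannot give less. This difference and age cannot be told apart, and where the probe sets of each gene lie along the transcript was not analysed here.

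The counts by chromosomal neighbourhood, each known from mouse genetics, stand beside 10.1% of all genes that rose and 13.3% that fell. Groups of 3 to 5 genes are too small to be set apart from these shares. In the Dlk1 to Dio3 domain, 2 of 4 measured genes rose and 0 fell. In the neighbourhood of Peg10, Sgce and Asb4 fell, and Peg10, Ppp1r9a and Calcr did not pass the test. Among the 4 measured genes of the Kcnq1 domain, 0 rose and 0 fell by limma, and their values ran from -0.09 to 0.22, with 0 past an unadjusted p of 0.05. Of the 5 genes of the Snrpn to Ube3a region, Ndn fell, and of the 3 of the Peg3 domain, Peg3 fell.

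Imprinted genes outside the 33 were set beside them, on a list of 43 genes written from general knowledge. Of 36 measured, 7 rose, 6 fell and 23 did not pass the test, with a median log2 fold change of 0.03. These were 19.4% that rose and 16.7% that fell, against 10.1% and 13.3% of all genes. Those with the smallest p were Cntn3 (0.45, a dim probe set), Kcnq1ot1 (-0.38), Ano1 (-0.32) and Atp10a (0.44). Kcnq1ot1 is the paternally expressed noncoding RNA that silences Cdkn1c, Kcnq1 and their neighbours on that copy, and was at 7.94 ± 0.051 in old and 8.31 ± 0.041 in young follicles (SD, n = 3 each, adjusted p = 0.0035 from limma). Ano1 encodes a chloride channel, Cntn3 a cell adhesion protein and Atp10a a lipid-transporting membrane protein. As in the 33 members, no gene of this list reached a fold of 2.

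The genes that write, protect and read imprints fell in part. Of 29 measured genes of this kind, 0 rose, 10 fell and 19 did not pass the test by limma. The median of the list was -0.18 on the log2 scale. Over all genes 10.1% rose and 13.3% fell. No gene of this list was dim, and among all genes that were not dim 9.88% rose and 19.5% fell. The list was not rerun under the other settings. At an unadjusted p under 0.05, 1 was higher and 12 lower. Kdm1b, a histone demethylase that oocytes need to methylate imprinted genes, was at 8.80 ± 0.096 in old and 9.29 ± 0.043 in young follicles, a log2 fold change of -0.49 ± 0.06 (standard error) with an adjusted p of 0.0025 by limma. The maternal factor Nlrp5 was at -0.33, the histone methyltransferase gene Ehmt1 at -0.33 and its relative Setdb1 at -0.41. Of the enzymes that place the marks, named here after their values were seen, the methyltransferase gene Dnmt3a fell by 0.27 and its cofactor Dnmt3l was at 0.06. Zfp57, which protects methylated imprints, was at -0.18 and did not pass the test (adjusted p = 0.16 from limma).

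Markers of several cell types moved between the same samples. Over all genes 10.1% rose and 13.3% fell, and the granulosa (16.7% and 8.33%) and endothelial markers (14.3% each) were near these shares. Of 15 oocyte markers, 11 fell and 0 rose by limma (0 higher at an unadjusted p under 0.05), with a median of -0.26, and their summed level lay between 14.76 and 14.78 in old samples and between 14.98 and 15.01 in young samples (log2 of the summed intensities). The list of imprint machinery shares 2 genes with the oocyte markers, Nlrp5 and Dppa3, and both fell. Of 12 granulosa markers, 2 rose and 1 fell, and the sum was between 15.31 and 15.33 in old and between 15.23 and 15.29 in young samples. Both cell types of the follicle were thus present in every sample by their markers. Of 10 stroma markers, 5 rose and 1 fell, with sums between 12.23 and 12.25 in old and between 12.14 and 12.23 in young samples. All 6 surface epithelium markers rose, with sums between 8.96 and 9.09 in old and between 8.003 and 8.07 in young samples. Of 10 macrophage markers, 6 rose and 1 fell (9.20 to 9.29 in old, 8.58 to 8.60 in young), of 6 smooth muscle markers 4 rose and 0 fell (10.32 to 10.35 in old, 9.61 to 9.74 in young), of 7 endothelial markers 1 rose and 1 fell (7.57 to 7.66 in old, 7.49 to 7.53 in young) and of 6 theca and steroidogenic markers 2 rose and 0 fell (12.35 to 12.36 in old, 12.24 to 12.29 in young). Each sum follows the brightest genes of its list and can hide changes in dimmer ones. The median log2 fold change of the theca and steroidogenic markers was 0.0096. Among them, Cyp17a1 (-0.11), Gli1 (-0.10), Ptch1 (-0.02) and Hsd3b1 (0.04) did not pass the test. Star rose to 3.67 and Cyp11a1 to 2.52 times the young level. All 11 immediate-early genes and all 10 interferon-stimulated genes on the lists used rose as well. The part of these shifts in the results for imprinted genes was not tested.

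**Figure D4:**
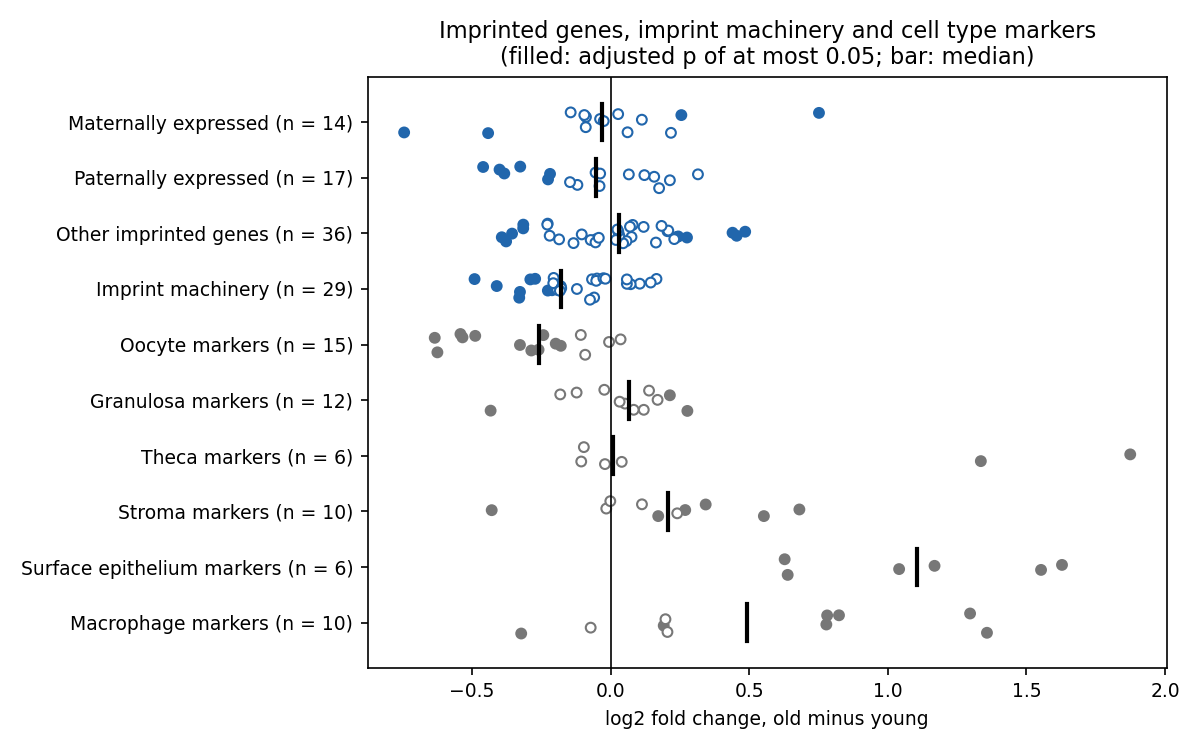
The log2 fold change, old minus young (horizontal axis), of each measured gene on 10 lists, with a black bar at the median of the list and filled points for an adjusted p of at most 0.05. The medians of the maternally and paternally expressed genes lie near 0 (-0.032 and -0.054), those of imprint machinery and oocyte markers at -0.18 and -0.26, and that of surface epithelium markers at 1.10.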

How the data were processed

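Follicle RNA was hybridised to 6 Affymetrix mouse genome arrays, 3 for each age. The authors deposited RMA-normalized intensity values on a linear scale, from 2.62 to 13880. Which RMA software made them was not given in the sources used here. Here log2 was taken with no pseudocount. Probe sets were named by the platform annotation (34945 with 1 symbol, 932 with several, 9211 not listed, 64 controls), and symbols were updated through RefSeq GRCm38.p6, which held 18032 of 18194 gene IDs. The brightest probe set stood for each gene, as 9010 genes had several.

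Old and young samples were compared by two-sided moderated tests in limma 3.58.1 under R 4.3.3, fitted with lmFit and eBayes and adjusted by Benjamini-Hochberg across 18193 genes. "Rose" and "fell" refer to an adjusted p of at most 0.05, and "called" adds a fold of at least 2. SAM, named by the study, was rewritten with all 20 label assignments. Every measured member is named, with values in each sample for the 10 largest changes, for other members past the threshold and for a few more, the latter chosen after seeing values. In other lists the 4 genes with the smallest p are named. The machinery genes Dnmt3a, Dnmt3l and Zfp57 were added after their values were seen. The members and lists were chosen with earlier results of these data known. On simulated data for this comparison of 18193 genes, 89 of 100 genes with a log2 change of 0.75 and 98 of 100 with 1.5 were found by limma, along with 18 false calls. Errors were independent there, and far fewer genes were changed than the 23.4% that passed in the data. No change smaller than 0.75 was simulated, and most members changed by less, so these figures do not measure the recovery of the member changes. Arrays have no read depth, and 3 per group limit the precision. The alternatives are given with their effect in the closing part.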

Additional observations from a re-analysis of the deposited data

How the results depend on the processing

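Rian, Gatm, Peg3, Asb4 and Nnat kept their direction and stayed past the threshold in every setting in which they could be fitted. Meg3, Plagl1, Grb10, Ndn, Sgce, Gnas and Slc38a4 each lost the threshold in at least 2 settings, and the cause was not tested. Plagl1 turned to 0.56 without shared probe sets, and Gnas to 0.23 there and to 0.038 with all probe sets averaged. The number of members that fell, 10, was 4 without shared probe sets, where Nnat and Grb10 could not be fitted. It was 5 with the replicate block and from 4 to 8 when a sample was left out. The number that rose, 2, was from 1 to 3 when a sample was left out, and 5 with at least 1 probe set of a gene counted. That last setting was chosen after seeing the data, and the share of all genes was not computed for it. At a fold of at least 1.5, 1 member was higher and 1 lower, Rian and Gatm. With at least 1 probe set counted, 1 was lower at a fold of 2, Peg3. No member was called at a fold of 2 when a sample was left out (0 to 0 in each direction).

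The median of the maternally expressed genes was -0.069 without shared probe sets, 0.0035 after quantile normalization, 0.00075 after cyclic loess, and from -0.058 to 0.024 when a sample was left out. That of the paternally expressed genes was 0.0021 without shared probe sets, -0.10 after quantile normalization and -0.091 after cyclic loess. It was from -0.10 to -0.058 when a sample was left out. Without dim genes it was -0.23, where the median of all genes also moved, from -0.0042 to -0.046. That filter kept a gene when either group mean reached 4.94. Slc38a4, with means of 4.57 in old and 4.96 in young follicles, was kept through its young mean only. Deviations from the group means correlated at 0.053, -0.0003 and 0.043 between same-numbered samples. Between differently numbered samples the correlations ran from -0.085 to 0.063. With 3 samples per age, these values cannot decide whether the numbers pair the samples. With the replicate block Grb10, Slc38a4, Ndn, Plagl1 and Sgce were no longer past the adjusted p threshold, and 15.2% of the members fell, against 10.5% of all genes. The highest and lowest counts over all genes tested were 2432 and 1137 that rose and 3224 and 1478 that fell. Against 1835 that rose and 2422 that fell in the analysis as reported, quantile normalization gave 2153 and 1939, and cyclic loess 2184 and 1934.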
